A study of Mus musculus with 12 samples.

Results

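The genes described here encode a set of splicing factors, measured in bone marrow-derived macrophages. The set covers SR proteins, heterogeneous nuclear ribonucleoproteins (hnRNPs), some proteins of the small nuclear ribonucleoprotein particles (snRNPs) and the SF3 subunits. The genes were chosen by name, as every gene whose symbol begins with Srsf and a digit, Hnrnp, Snrp, or Sf3a or Sf3b and a digit, and whose mean normalized count reached 10. That gave 51 of the 14264 genes in the tables. None of the matching genes fell below the minimum and none carried a pseudogene name. The lowest was Snrpert with a mean normalized count of 91.2, and Snrpg followed with 483.3. Snrpert is annotated as a processed pseudogene although its name does not say so, and the other 50 are protein coding.

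Macrophages grown from mouse bone marrow carried either a control short hairpin RNA (shCTRL), labelled wild type, or a hairpin that depletes MOF (shMOF). MOF is the lysine acetyltransferase encoded by Kat8, which acetylates histone H4. Each of the 2 hairpins was studied without stimulation and after 3 h of lipopolysaccharide (LPS, a bacterial cell wall product that activates macrophages) at 100 ng/ml, which makes 4 groups of 3 libraries. The sources used here give neither the strain and age of the mice nor the way the hairpins were delivered. The labels name no further hairpin against MOF, so loss of MOF and other effects of this hairpin cannot be told apart, and they do not say whether libraries of a group came from separate mice or cultures, so the p-values may measure technical spread only. What can be compared is 1 fold change per gene and LPS state, shMOF over shCTRL, with its standard error (SE). Below, rises and falls with LPS are differences of shMOF from shCTRL in LPS-treated cells. No comparison of LPS-treated with unstimulated cells was available, so the response to LPS itself is not shown. The tables hold no values per library, so no library's own level can be shown and depth is unknown. In bulk RNA, fewer cells of a type and less RNA per cell cannot be told apart.

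Splicing removes introns from pre-mRNA in the spliceosome. Sm proteins form a ring on the snRNAs of the U1, U2, U4 and U5 particles, other snRNP proteins mark a single particle, and SF3A and SF3B are the U2 snRNP complexes that hold the branch point. SR proteins carry RNA recognition motifs and an arginine-serine domain and often promote the use of exons, while hnRNPs coat nascent RNA and often repress it. Many SR and hnRNP genes control their own level through exons that lead to decay of the transcript. In macrophages, splicing contributes to the timing of LPS-induced mRNAs.

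Kat8 itself was at 0.210-fold of control in unstimulated cells and 0.201-fold with LPS in the authors' deposited table (log2 fold change -2.25, SE 0.10, and -2.31, SE 0.13). All 10 macrophage marker genes examined, among them Csf1r, Adgre1, Cd68 and Lyz2, were measured, with a summed mean normalized count of 545129. Of 8 neutrophil markers 2 were found, with a sum of 27.7. No row was found for the 4 T cell and 2 mast cell markers, and 1 of 4 B cell, 1 of 3 dendritic and 3 of 4 progenitor markers were, the last with a sum of 163.3. All 3 fibroblast markers were found, with a sum of 1245, and Col1a1 rose with knockdown by 0.42 (SE 0.13) unstimulated and 0.52 (SE 0.12) with LPS in the authors' deposited table, while Kit fell by 1.81 (SE 0.38) and had -0.83 (SE 0.51, adjusted p = 0.174) with LPS. The progenitor marker Cd34 fell in both states, by 0.93 (SE 0.25) and 0.97 (SE 0.36), the B cell marker Cd79b rose in both, by 0.34 (SE 0.13) and 0.37 (SE 0.14), and the dendritic marker Zbtb46 had -0.03 (SE 0.32) and rose with LPS by 0.70 (SE 0.20), in the same table. Macrophage markers themselves rose in 10 of 10 cases unstimulated and in 8 of 10 with LPS. The part of such shifts in the results below was not tested.

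Promoter sequence is shown for a few genes whose response marks the ends of the pattern described below: Srsf3 and Srsf7, which were lower with knockdown in resting cells and higher after LPS, and Srsf2 and Hnrnph2, which were lower in both states. Each sequence ends at the last base before the start of transcription in RefSeq, or before the first annotated exon base of GENCODE M21 where that lies further upstream, and reads 5′ to 3′ on the strand of the gene, on build GRCm38.p6. Capitals mark matches, on either strand, to the motifs searched: the E-box CACGTG, the CCAAT box, GGCGGG as bound by SP factors, CCGGAAG as bound by ETS factors, TTCGCG as part of E2F sites, GCATGCG as part of NRF1 sites, the TATA box TATAAA and the palindrome TCGCGA.
Srsf3, chr17:29032410-29032627, plus strand: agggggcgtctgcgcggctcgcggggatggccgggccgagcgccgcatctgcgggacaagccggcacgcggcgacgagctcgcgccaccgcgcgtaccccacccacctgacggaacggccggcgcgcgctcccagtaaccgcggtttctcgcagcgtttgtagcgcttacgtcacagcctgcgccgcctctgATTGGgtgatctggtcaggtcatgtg
Srsf7, chr17:80207308-80207555, minus strand: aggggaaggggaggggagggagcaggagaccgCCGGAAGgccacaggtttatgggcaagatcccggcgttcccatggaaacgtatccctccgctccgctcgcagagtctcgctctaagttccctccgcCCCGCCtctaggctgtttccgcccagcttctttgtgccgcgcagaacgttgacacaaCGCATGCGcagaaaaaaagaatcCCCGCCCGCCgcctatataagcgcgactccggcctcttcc
Srsf2, chr11:116853095-116853344, minus strand: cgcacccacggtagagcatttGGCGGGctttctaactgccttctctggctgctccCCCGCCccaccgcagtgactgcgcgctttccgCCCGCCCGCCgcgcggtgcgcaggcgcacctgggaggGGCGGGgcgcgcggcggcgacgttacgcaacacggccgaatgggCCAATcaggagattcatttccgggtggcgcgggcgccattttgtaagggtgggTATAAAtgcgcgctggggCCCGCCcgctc
Hnrnph2, chrX:134600929-134601178, plus strand: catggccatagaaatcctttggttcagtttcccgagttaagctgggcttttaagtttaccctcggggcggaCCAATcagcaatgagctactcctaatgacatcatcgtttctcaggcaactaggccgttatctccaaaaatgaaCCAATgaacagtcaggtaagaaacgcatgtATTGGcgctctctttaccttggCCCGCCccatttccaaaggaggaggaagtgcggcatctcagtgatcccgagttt

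Windows of 250 bases upstream of the RefSeq start were available for 44 of the 51 genes. Hnrnpll, Hnrnpul2, Sf3b4, Sf3b5, Snrpb, Snrpd1 and Snrpert had none. The shares below use whole windows, and some of these overlap exons of the gene itself in GENCODE M21. All 250 bases do so for Hnrnpdl, Hnrnph3, Hnrnpm, Sf3a2, Snrpd3 and Srsf10, and for a window of Snrpa. Exon bases were left out of the printed stretches alone. The GGCGGG motif stood in the windows of 33 of the 44 genes (75%), against 61.7% of 9849 genes of the expression tables with a window and 35.1% of all 27025 genes. The CCGGAAG motif was held by 15 of the 44 (34.1%), against 15.6% and 7.83%. CCAAT was held by 21 (47.7%, against 40.4% and 37.5%), and the E-box by 4 (9.09%, against 9.88% and 6.86%). TATAAA was held by 5 genes (11.4%, against 7.85% and 14.3%) and TTCGCG by 5 (11.4%, against 7.44% and 3.81%). GCATGCG was held by 4 (9.09%, against 6.31% and 3.43%) and TCGCGA by 4 (9.09%, against 4.66% and 2.38%). TTCGCG and TCGCGA can share bases. Median GC content of the windows was 61.2%, against 59.6% in genes of the tables. The part of base composition in the matches was not tested, and the shares are descriptions without a test. Of the printed stretches, those of Srsf7, Srsf2 and Hnrnph2 hold GGCGGG, and that of Srsf7 holds CCGGAAG and GCATGCG. Those of Srsf2 and Hnrnph2 hold CCAAT boxes, and that of Srsf2 holds TATAAA. In the printed stretch of Srsf3 the match is a CCAAT box on the other strand. The TATAAA match of the Srsf3 window lies in the 32 bases left out as annotated exon.

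In unstimulated macrophages, more splicing factor genes were lower than higher with MOF knockdown, and the changes were small. Of the 51 genes 18 fell and 8 rose at an adjusted p under 0.05 (DESeq2, Benjamini-Hochberg over all genes) in the authors' deposited table, with a median log2 fold change of -0.05 and a range from -0.67 to 0.42. Hnrnph2 was the sole member changed by at least 1.5-fold. Over all 14264 genes tested, 17.8% were called lower and 21.3% higher, with a median of 0.03. Since calls depend on the level of a gene through its SE, a second background was taken, the 3221 genes whose mean normalized count lies between the quartiles of the splicing factors, 1145 and 4342. Of these 22.4% were lower and 32.2% higher, with a median of 0.04. The splicing factors thus had 35.3% lower and 15.7% higher, a split that runs opposite to both backgrounds.

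After 3 h of LPS the split was turned. Of the 51 genes 22 rose and 5 fell, by the same threshold in the authors' deposited table, with a median log2 fold change of 0.10 and a range from -0.40 to 0.64. The backgrounds moved too: 28.1% of all 13987 genes tested were called higher and 20.0% lower, and among genes of like mean count 44.4% were higher and 19.9% lower, with a median of 0.09. At 43.1%, the share of splicing factors called higher was near that of genes of like mean count, and at 9.80% the share called lower was below it. Subtracting the median of genes of like mean count, an alternative added after the data were seen, left 16 higher and 8 lower. Hnrnpf, at 1.56-fold, was the member with the widest change.

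**Figure D1:**
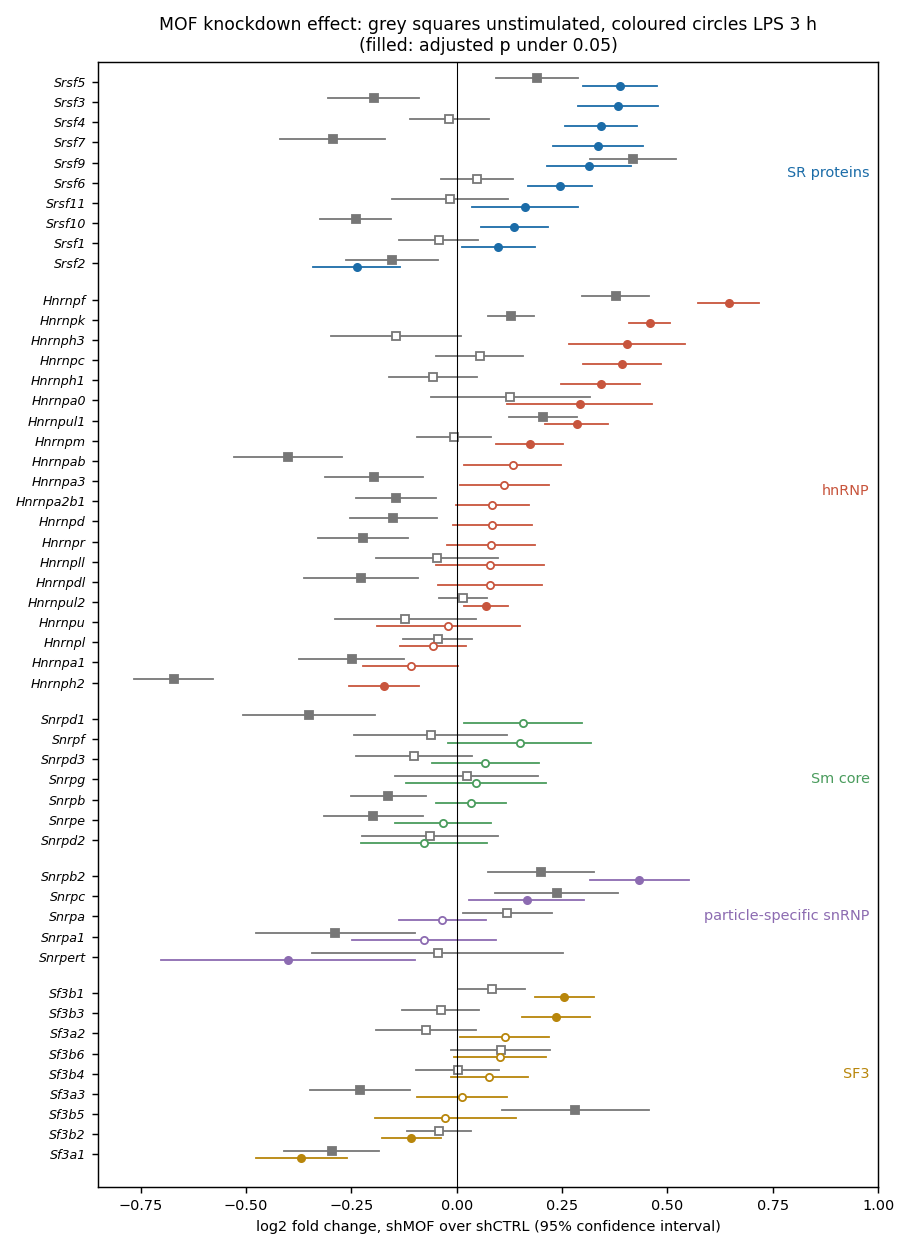
Log2 fold change of shMOF over shCTRL for each of the 51 genes (x axis) with its 95% confidence interval, grouped by role; grey squares are unstimulated cells, coloured circles LPS 3 h, filled symbols pass an adjusted p of 0.05. Among the SR genes 9 of 10 circles lie to the right of 0, while among the Sm genes no circle is filled.

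The knockdown effect itself differed between the LPS states in 26 of the 51 genes, and in 25 of these it was more positive with LPS. The difference is the log2 fold change with LPS minus that without, tested against its combined SE with adjustment over 12994 genes. Its median over the 51 genes was 0.19 and its range -0.36 to 0.63. The background was 18.2% more positive and 12.4% more negative over all genes tested, and 28.8% and 13.4% among genes of like mean count, with a median of 0.06. Splicing factors had 49.0% and 1.96%. Sf3b5 was the one gene with a more negative effect. Of the 18 genes that fell in resting cells, 3 rose with LPS, 3 fell again and 12 were not called, and 12 of the 22 that rose with LPS had no call in resting cells. Across the 51 genes the effects in the 2 states had a Pearson r of 0.46 and a Spearman rho of 0.43, against 0.49 and 0.43 over all 12994 genes. These are descriptions over genes that share libraries.

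**Figure D2:**
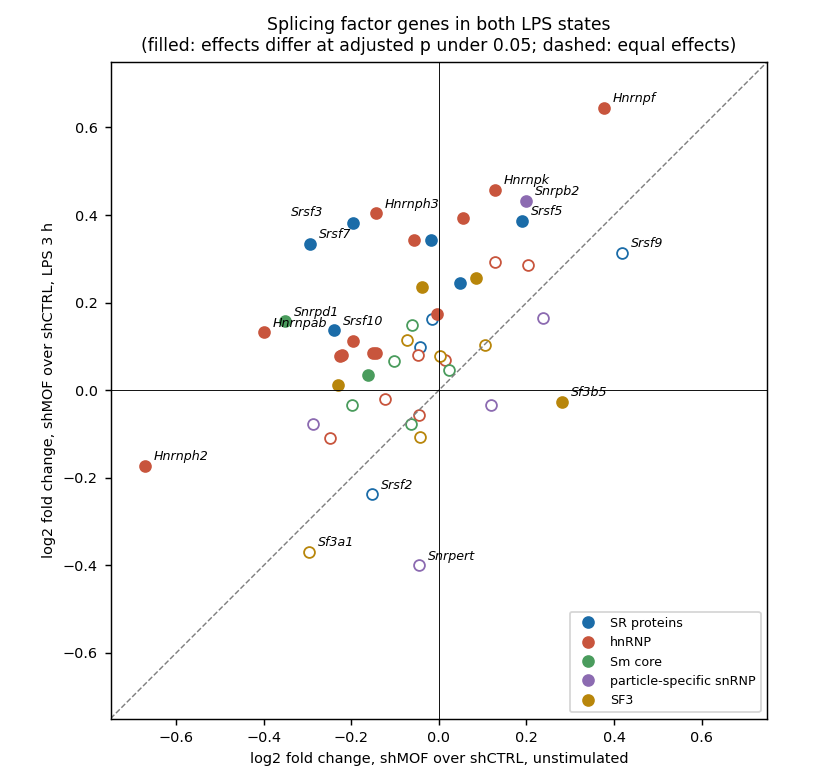
Knockdown effect (log2 fold change, shMOF over shCTRL) in unstimulated cells (x axis) against LPS 3 h (y axis), 1 point per gene, coloured by role; filled points are the 26 genes whose effects differ between states, and the dashed line marks equal effects. All filled points but Sf3b5 lie above the line, and Srsf3, Srsf7 and Srsf10 sit in the upper left, lower in resting cells and higher with LPS.

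Of 10 SR genes 9 rose (90%) and 1 fell (10%) with LPS, in the authors' deposited table. Of genes of like mean count 44.4% and 19.9% did, and of all genes 28.1% and 20.0%. In unstimulated cells 2 SR genes rose (20%) and 4 fell (40%). There the shares were 32.2% and 22.4% of genes of like mean count, and 21.3% and 17.8% of all genes. The SR median moved from -0.03 to 0.28. The effect was more positive with LPS in 6 SR genes (60%) and more negative in 0. Genes of like mean count had 28.8% and 13.4%, and all genes 18.2% and 12.4%. After subtraction of the median of genes of like mean count, 6 SR genes rose and 1 fell with LPS, and the effect was more positive in 4.
Srsf3 (ENSMUSG00000071172.12, chromosome 17 from 29032628 to 29043373 of GRCm38, plus strand), the smallest family member and an adaptor for mRNA export, fell to 0.872-fold in resting cells, which the authors' deposited table gives as -0.20 on the log2 scale (SE 0.05, adjusted p = 0.00137). With LPS it rose to 1.30-fold, or 0.38 (SE 0.05, adjusted p = 4.01e-14). The difference was 0.58 (SE 0.07, adjusted p = 1.37e-13).
Srsf7 (ENSMUSG00000024097.10, chromosome 17 from 80200080 to 80207307, minus strand), the export adaptor with a zinc knuckle, moved likewise from -0.29 (SE 0.06) to 0.33 (SE 0.05), per the authors' deposited table. That is 0.815-fold against 1.26-fold, and its difference of 0.63 (SE 0.08, adjusted p = 2.55e-12) was the widest of the 51 genes.
Srsf10, which represses splicing when dephosphorylated after heat shock, went from -0.24 (SE 0.04) to 0.14 (SE 0.04, adjusted p = 0.00235), per the authors' deposited table, a difference of 0.38 (SE 0.06). Its rise with LPS was no longer called when the median of genes of like mean count was subtracted (0.04, adjusted p = 0.381). These 3 genes were the ones called in opposite directions in the 2 states.

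Other SR genes were higher with knockdown in LPS-treated cells and had no call in resting cells. Srsf4 had -0.02 (SE 0.05) in resting cells and 0.34 (SE 0.04, adjusted p = 5.12e-14) with LPS, and Srsf6 had 0.05 (SE 0.04) and 0.25 (SE 0.04), per the authors' deposited table. Both differences passed, at 0.36 (SE 0.06) and 0.20 (SE 0.06). In GENCODE, 43.0% of the exon bases of Srsf4 are shared with the opposite-strand transcript Gm12992, whose mean normalized count was 85.2 against 1317 for Srsf4. Srsf1, the prototype of the family, and Srsf11 rose slightly with LPS, by 0.10 (SE 0.04, adjusted p = 0.0486) and 0.16 (SE 0.06), per the authors' deposited table. Their differences, 0.14 (95% confidence interval 0.02 to 0.27, adjusted p = 0.0818) and 0.18 (-0.01 to 0.37), did not pass after adjustment. The rises of Srsf1 and Srsf11 with LPS were lost on centring, both on all genes (0.07, adjusted p = 0.187, and 0.13, adjusted p = 0.0741) and on genes of like mean count (0.01, adjusted p = 0.911, and 0.07, adjusted p = 0.377).
Srsf5 and Srsf9 rose in both states. In the authors' deposited table Srsf5 had 0.19 (SE 0.05) and then 0.39 (SE 0.05, adjusted p = 1.63e-16), with a difference of 0.20 (SE 0.07, adjusted p = 0.0146). Srsf9 had 0.42 (SE 0.05, adjusted p = 1.40e-14), the highest rise of the 51 genes in resting cells, and 0.31 (SE 0.05), with a difference of -0.11 whose interval runs from -0.25 to 0.04.
Srsf2, a marker of nuclear speckles, was the exception: it fell in both states, with -0.15 (SE 0.06) and -0.24 (SE 0.05, adjusted p = 2.90e-05), per the authors' deposited table, and the difference of -0.08 (-0.23 to 0.07) did not pass. Its exons overlap Mfsd11 and Mettl23 on the opposite strand over 9.74% and 15.6% of their bases. The mean normalized counts of Mfsd11 and Mettl23 were 2661 and 214.8, against 3976 for Srsf2.

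Among 20 hnRNP genes 8 fell (40%) and 3 rose (15%) in resting cells, in the authors' deposited table. Of genes of like mean count, 22.4% fell and 32.2% rose there. With LPS 9 rose (45%) and 1 fell (5%), against 44.4% and 19.9% of genes of like mean count. The share of rises was thus near that background, whose range of 1145 to 4342 was set by all splicing factor genes. Many hnRNP genes lie above this range, up to Hnrnpa2b1 with 13653, and some below it, down to Hnrnph3 with 555.0. The effect was more positive with LPS in 13 hnRNP genes (65%, against 28.8%) and more negative in 0 (against 13.4%). The median moved from -0.09 to 0.10, against 0.04 and 0.09 in genes of like mean count. After subtraction of the latter medians, 7 hnRNP genes rose and 3 fell with LPS. The effect was then more positive in 12.
The largest fall of the 51 genes was in Hnrnph2 (ENSMUSG00000045427.13, chromosome X from 134601179 to 134607060, plus strand), whose protein binds runs of G. It stood at 0.628-fold of control in resting cells, -0.67 (SE 0.05, adjusted p = 1.63e-43), and at 0.888-fold with LPS, -0.17 (SE 0.04, adjusted p = 1.92e-04), per the authors' deposited table. The fall was smaller with LPS by 0.50 (SE 0.06, adjusted p = 2.33e-13).
The other 3 genes of the G-run binding family rose with LPS. Hnrnpf (ENSMUSG00000042079.13, chromosome 6 from 117900324 to 117925622, plus strand) rose to 1.30-fold in resting cells (0.38, SE 0.04, adjusted p = 3.58e-19) and to 1.56-fold with LPS (0.64, SE 0.04, adjusted p = 1.91e-65), per the authors' deposited table. Hnrnph1 and Hnrnph3 had no call in resting cells, with -0.06 (SE 0.05) and -0.14 (SE 0.08) and rose with LPS by 0.34 (SE 0.05) and 0.40 (SE 0.07), per the authors' deposited table. All 3 differences passed: 0.27 (SE 0.05) for Hnrnpf, 0.40 (SE 0.07) for Hnrnph1 and 0.55 (SE 0.11) for Hnrnph3.

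Hnrnpk (ENSMUSG00000021546.17, chromosome 13 from 58391142 to 58403343, minus strand), which binds C-rich RNA, rose by 0.13 (SE 0.03) in resting cells and 0.46 (SE 0.03, adjusted p = 2.35e-72) with LPS (authors' deposited table). Its difference of 0.33 (SE 0.04, adjusted p = 8.58e-17) had the smallest p of the 51 genes. Hnrnpc, which binds U-rich tracts, had 0.05 (SE 0.05) and then 0.39 (SE 0.05, adjusted p = 2.19e-15), with a difference of 0.34 (SE 0.07), and Hnrnpul1 rose by 0.20 (SE 0.04) and 0.28 (SE 0.04), per the authors' deposited table. Hnrnpa0, Hnrnpm and Hnrnpul2 were called higher with LPS and not in resting cells, by 0.29 (SE 0.09), 0.17 (SE 0.04) and 0.07 (SE 0.03), per the authors' deposited table, and of these Hnrnpm had a difference that passed (0.18, SE 0.06), while those of Hnrnpa0 and Hnrnpul2 were 0.16 (SE 0.13) and 0.06 (SE 0.04). On centring on genes of like mean count the LPS calls of Hnrnpm (0.08, adjusted p = 0.0879) and Hnrnpul2 were lost, and Hnrnpul2 turned to -0.02.
A further 7 hnRNP genes fell in resting cells and had no call with LPS. Hnrnpab had -0.40 (SE 0.07, adjusted p = 1.09e-08), or 0.758-fold, in resting cells and 0.13 (SE 0.06, adjusted p = 0.0507) with LPS, in the authors' deposited table, with a difference of 0.53 (SE 0.09). It shares 29.1% of its exon bases with Phykpl on the opposite strand, whose mean normalized count was 175.0 against 11729. Hnrnpa3, Hnrnpa2b1, Hnrnpr, Hnrnpdl and Hnrnpd, the AU-rich element binder AUF1, lay between -0.23 and -0.14 in resting cells and between 0.08 and 0.11 with LPS in the authors' deposited table. All 5 had a more positive effect with LPS, by 0.23 to 0.31. Hnrnpa1, the last of these and a well-studied splicing silencer, fell by 0.25 (SE 0.06, adjusted p = 4.07e-04) and had -0.11 (SE 0.06) with LPS, and its difference of 0.14 (-0.03 to 0.31) did not pass. Hnrnpl, Hnrnpll and Hnrnpu had no call in either state, and the intervals of their differences lay between -0.14 and 0.34.

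The Sm ring genes had no call with LPS. Of 7 Sm genes 3 fell (42.9%) and 0 rose in resting cells, against 17.8% and 21.3% of all genes, per the authors' deposited table. With LPS 0 fell or rose, against 20.0% and 28.1% of all genes, and 1 had an unadjusted p under 0.05. All but Snrpb had mean normalized counts of 483.3 to 1082, under the lower quartile of the splicing factors, 1145. Their SE with LPS ran from 0.06 to 0.09, against a median of 0.05 over the splicing factors, so small changes could go uncalled. Snrpd1 (ENSMUSG00000002477.4, chromosome 18 from 10617775 to 10642079) fell to 0.784-fold, -0.35 (SE 0.08, adjusted p = 6.08e-05), and had 0.16 (SE 0.07, adjusted p = 0.0547) with LPS, in the authors' deposited table. Its difference was 0.51 (SE 0.11, adjusted p = 2.13e-05). Snrpb had -0.16 (SE 0.05) and 0.03 (SE 0.04), with a difference of 0.20 (SE 0.06), and Snrpe had -0.20 (SE 0.06) and -0.03 (SE 0.06), with a difference of 0.16 (SE 0.08) that did not pass (adjusted p = 0.125). Snrpd2, Snrpd3, Snrpf and Snrpg were called in neither state, between -0.10 and 0.15. So subunits of the same ring, which assemble in equal numbers, ranged from -0.35 to 0.02 in resting cells, with SE of 0.05 to 0.09. For Snrpf, 65.9% of exon bases overlap Ccdc38 on the opposite strand.
Proteins of single particles went both ways, with 2 of 5 genes higher (40%) and 1 lower (20%) in each state. Of all genes 21.3% were called higher and 17.8% lower in resting cells, and 28.1% and 20.0% with LPS. Snrpb2, of the U2 particle, rose by 0.20 (SE 0.06) and 0.43 (SE 0.06, adjusted p = 5.01e-12), with a difference of 0.23 (SE 0.09, adjusted p = 0.0291), per the authors' deposited table. Snrpa1, its partner in U2, fell by 0.29 (SE 0.10) in resting cells and had -0.08 (SE 0.09) with LPS. Snrpc, of U1, rose by 0.24 (SE 0.07) and 0.17 (SE 0.07), and Snrpa, also of U1, had no call, at 0.12 (SE 0.05) and -0.03 (SE 0.05), per the authors' deposited table. The LPS call of Snrpc was lost on centring (0.14, adjusted p = 0.0939). The pseudogene Snrpert, 98.9% identical over 279 bases to Snrpe transcripts, had -0.05 (SE 0.15) and -0.40 (SE 0.15, adjusted p = 0.0210), per the authors' deposited table. By its name Snrpert was counted in the single-particle group of 5, also in the figures, and it was the 1 gene of that group that fell with LPS. Without Snrpert 4 of the remaining 50 splicing factor genes fell with LPS. Reads of such near copies can be exchanged in counting.

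Of 9 SF3 genes of the branch point complex 2 fell (22.2%) and 1 rose (11.1%) in resting cells, and 2 fell and 2 rose with LPS (22.2% each), in the authors' deposited table. The shares called lower are near those of all genes (17.8% and 20.0%), and those called higher are below them (21.3% and 28.1%). Sf3a1 (ENSMUSG00000002129.11, chromosome 11 from 4160350 to 4182541, plus strand) fell in both states, to 0.814-fold (-0.30, SE 0.06) and 0.775-fold (-0.37, SE 0.06, adjusted p = 2.25e-10), with no difference detected (-0.07, -0.23 to 0.08). Sf3a3 fell in resting cells, with -0.23 (SE 0.06) against 0.01 (SE 0.05) with LPS, and Sf3a2 had no call, in the authors' deposited table. Of the SF3B genes, Sf3b1, which contacts the branch point and is often mutated in blood cancers, rose with LPS by 0.26 (SE 0.04, adjusted p = 1.10e-11) after 0.08 (SE 0.04) in resting cells, in the authors' deposited table. Sf3b3 rose there by 0.24 (SE 0.04), and its difference of 0.27 (SE 0.06) passed, as did that of Sf3b1 (0.17, SE 0.05). Sf3b2 fell with LPS by 0.11 (SE 0.04, adjusted p = 0.00773). Sf3b5 rose in resting cells by 0.28 (SE 0.09) and had -0.03 (SE 0.09) with LPS, in the authors' deposited table, and its difference of -0.31 (SE 0.12, adjusted p = 0.0425) was lost at a threshold of 0.01. Sf3b4 and Sf3b6 lay between 0.00 and 0.10 in both states. The difference of Sf3a3 was 0.24 (SE 0.08, adjusted p = 0.0128). After subtraction of the median of genes of like mean count, 7 of the 25 positive differences were no longer called. These were Sf3a3, Sf3b1, Snrpb2 and Srsf5 (adjusted p = 0.0684, 0.0925, 0.115 and 0.101) and Srsf6, Hnrnpm and Snrpb (adjusted p = 0.0517, 0.116 and 0.0717).

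**Figure D3:**
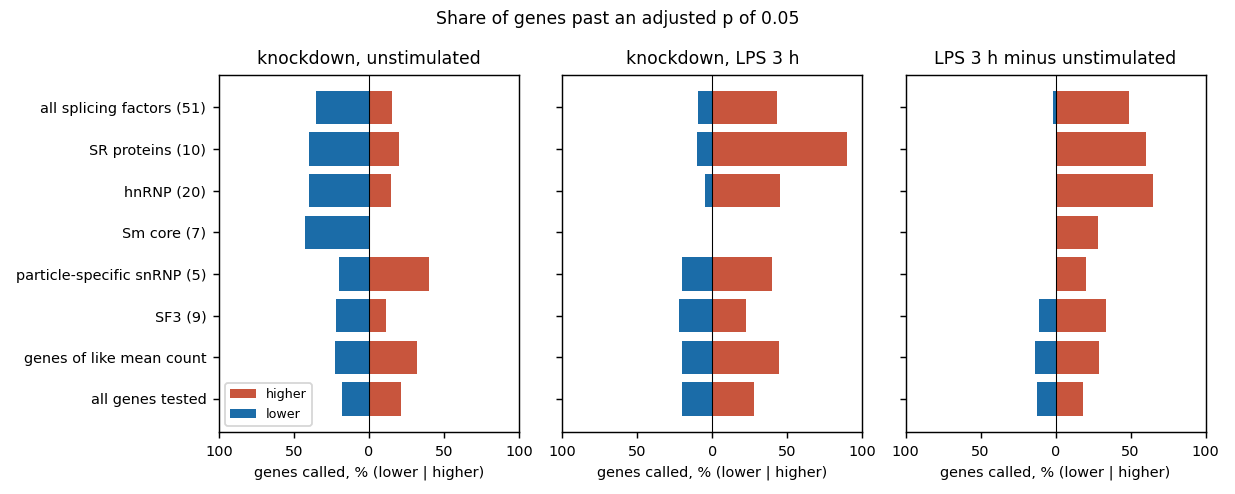
Percentage of genes called lower (blue, to the left) and higher (red, to the right) at an adjusted p under 0.05, by role group with its number of genes, beside genes of like mean count and all genes tested; panels show the 2 knockdown comparisons and the difference between them. The SR bar reaches 90% higher with LPS against 44.4% for genes of like mean count, and in the difference the hnRNP bar reaches 65.0% against 28.8%.

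Levels were compared per kb of exon, since mean normalized counts grow with length. Hnrnpab had the highest level, 4216 mean normalized counts per kb, followed by Hnrnpa2b1 with 2074 and Hnrnpk with 2011. The lowest was Hnrnpr with 48.1, and the median of the 51 genes was 588.8. By the longest transcript in place of all exons, Hnrnpab stayed first and Hnrnpk and Hnrnpa2b1 exchanged places. Of these 3 genes, Hnrnpk was called higher with knockdown in LPS-treated cells. Hnrnpab (0.13, adjusted p = 0.0507) and Hnrnpa2b1 (0.08, adjusted p = 0.101) were not. In all 3 the effect was more positive with LPS, and the genes were not tested against each other. Processed copies of these genes are common: 27 of the 51 have pseudogene transcripts of at least 90% identity over at least 200 bases in GENCODE M21, 120 in all, and 18 of those pseudogenes have a row of their own in the tables. Their summed mean normalized count was highest relative to the parent for Snrpg, at 18.9%, and it was 3.93% for Hnrnpk and 0.407% for Hnrnpa3, which has the most copies (42).

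Other splicing genes were read from lists by function. Over 12 lists holding 171 measured genes, 46 fell and 27 rose in resting cells, and 61 rose and 30 fell with LPS, in the authors' deposited table. The effect was more positive with LPS in 45 and more negative in 5. As shares, 26.9% fell and 15.8% rose in resting cells, against 17.8% and 21.3% of all genes. The genes of like mean count were matched to the SR, hnRNP, snRNP and SF3 genes and not to these lists. The lists hold genes far outside that range, such as Gemin8 with a mean normalized count of 27.7. Of the genes so matched, 22.4% fell and 32.2% rose in resting cells. With LPS 35.7% of the listed genes rose and 17.5% fell, against 28.1% and 20.0% of all genes. The matched genes had 44.4% and 19.9%, so the share of rises lies between both backgrounds and that of falls near them. The difference was more positive in 26.3% and more negative in 2.92%, against 18.2% and 12.4% of all genes. Among the matched genes the shares were 28.8% and 13.4%, so the share of more positive differences lies between both backgrounds. Counts of the single lists are to be read against the same shares.
Proteins related to the SR family, which share arginine-serine stretches, rose with LPS in 12 of 21 cases (57.1%) and fell in 3 (14.3%), against 1 and 2 in resting cells. Tra2a and Tra2b, the splicing activators homologous to fly transformer-2, rose by 0.60 (SE 0.05) and 0.51 (SE 0.05) with LPS after -0.03 (SE 0.06) and -0.01 (SE 0.05) in resting cells, in the authors' deposited table. Both differences passed, 0.63 (SE 0.08, adjusted p = 1.74e-12) and 0.52 (SE 0.07). Rsrp1 rose in both states, by 0.63 (SE 0.08) and 0.42 (SE 0.08), per the authors' deposited table.
Enzymes that phosphorylate SR proteins or carry them into the nucleus had 2 rises and 2 falls among 11 in resting cells, and 5 and 1 with LPS. The kinase gene Srpk1 fell in resting cells by 0.37 (SE 0.05) and had 0.04 (SE 0.05) with LPS, and the SR import receptor gene Tnpo3 fell by 0.32 (SE 0.04) and had 0.05 (SE 0.04), per the authors' deposited table. Their differences were 0.40 (SE 0.07) and 0.37 (SE 0.05). The kinase gene Clk1 rose in both states, by 0.25 (SE 0.07) and 0.17 (SE 0.06).
Other regulators, 33 genes, had 11 falls and 6 rises in resting cells and 19 rises (57.6%) and 5 falls (15.2%) with LPS, and the effect was more positive with LPS in 16 and more negative in 2. Mbnl1, a muscleblind splicing regulator, rose by 0.32 (SE 0.06) and 0.61 (SE 0.06), and the paraspeckle gene Pspc1 by 0.20 (SE 0.07) and 0.65 (SE 0.06), per the authors' deposited table. The cold-inducible gene Cirbp went the other way, with -0.15 (SE 0.09) and then -1.21 (SE 0.10, adjusted p = 3.09e-30), a difference of -1.06 (SE 0.13).

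Genes of 3′ splice site and branch point recognition had 2 rises and 3 falls among 14 in resting cells and 6 and 2 with LPS, and 7 had a more positive effect with LPS against 1. U2surp rose by 0.15 (SE 0.05) and 0.47 (SE 0.05), per the authors' deposited table, with a difference of 0.31 (SE 0.07), and Rbm17 rose with LPS by 0.32 (SE 0.04).
In the U4/U6.U5 tri-snRNP list 6 of 12 genes fell (50%) and 1 rose in resting cells, then 5 fell (41.7%) and 4 rose (33.3%) with LPS. Prpf8, the scaffold of the catalytic centre, fell by 0.40 (SE 0.05) in both, with no difference detected (adjusted p = 0.973), and Prpf31 and Usp39 fell by 0.42 (SE 0.06) and 0.41 (SE 0.05) in resting cells and by 0.53 (SE 0.06) and 0.33 (SE 0.05) with LPS, in the authors' deposited table. The machinery that loads Sm rings onto snRNA, 15 genes of the SMN complex and its partners, had 9 falls (60%) and 0 rises in resting cells. With LPS it had 4 falls (26.7%, near the 20.0% of all genes) and 0 rises. Gemin2 fell by 0.54 (SE 0.13) and 0.77 (SE 0.16), the helicase gene Ddx20 by 0.41 (SE 0.08) and 0.26 (SE 0.08), and Prmt5, which methylates Sm proteins, by 0.23 (SE 0.07) and 0.35 (SE 0.07), per the authors' deposited table.

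Among 20 genes of the Prp19 complex and the catalytic steps 4 rose and 4 fell in resting cells, and 7 and 5 with LPS. Rbm22 rose by 0.48 (SE 0.05) and 0.52 (SE 0.05) and Ppil1 fell by 0.56 (SE 0.09) and 0.51 (SE 0.09), per the authors' deposited table. Of 9 spliceosomal helicase genes 4 rose and 2 fell, then 1 and 3. Dhx15, which takes spliceosomes apart, fell in resting cells by 0.37 (SE 0.05) and had 0.02 (SE 0.04) with LPS, in the authors' deposited table, a difference of 0.39 (SE 0.06). The 13 Lsm genes had 4 rises and 3 falls, then 2 and 1, and Lsm2, of the U6 ring, fell by 0.75 (SE 0.11) and 0.25 (SE 0.10). The 7 genes named Snrnp had 1 rise and 1 fall, then 1 and 0. Exon junction complex genes, 7 in number, had 1 and 1, then 2 and 0, and 10 genes of nonsense-mediated decay had 1 rise and 2 falls, then 2 and 1.

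**Figure D4:**
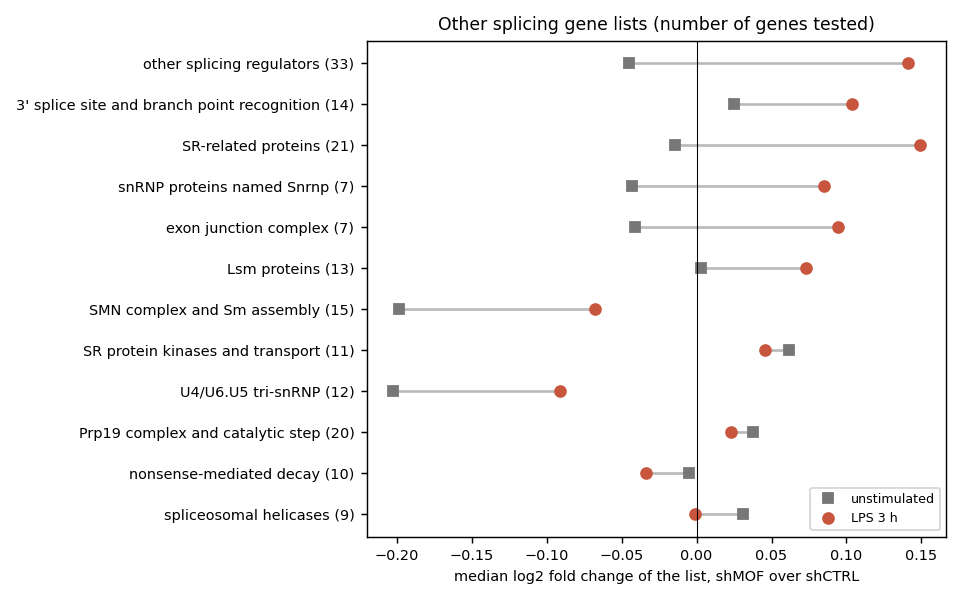
Median log2 fold change (x axis, shMOF over shCTRL) of 12 lists of other splicing genes in unstimulated cells (grey squares) and at LPS 3 h (red circles), with the number of genes tested in brackets, ordered by the median difference. Other splicing regulators moved from -0.05 to 0.14, whereas the SMN, tri-snRNP and nonsense-mediated decay lists stay below 0 in both states. The last has medians of -0.005 and -0.03.

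Cell cycle genes were read beside these results. All 16 proliferation genes of a short list fell in resting cells, with a median of -1.75, and 14 of 16 fell with LPS, with a median of -1.24, per the authors' deposited table. Their effect was more positive with LPS in 12 of 16, with a median difference of 0.54. The gene Mki67 alone accounted for the 1 rise of that list with LPS, at 0.83 (SE 0.06). Of the 51 splicing factor genes, 22 were higher and 5 lower with knockdown in LPS-treated cells. Their effect was more positive with LPS in 25 and more negative in 1. Of 8 Myc family genes 3 rose and 1 fell in resting cells and 4 rose and 1 fell with LPS, and Myc itself had -0.28 (SE 0.14, adjusted p = 0.0947) and 0.11 (SE 0.13). The part of proliferation in the splicing factor results was not tested.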

How the data were processed

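RNA from 12 libraries (4 groups of 3) was sequenced after stranded paired-end mRNA library preparation, per the labels' protocols. Per the submitters' processing notes, the authors used DESeq2, whose version is not stated, and the genome build mm10. The sources used here give no aligner, counter, annotation or strand setting, so reads of genes that overlap on opposite strands may not be separated. The authors deposited 2 tables, 1 per LPS state. Per the file headers, each holds a mean normalized count (a signal over libraries that are not stated, identical in both tables), a log2 fold change with its SE, a Wald statistic (a score, used in no result), a p-value and an adjusted p. The deposited p-values equalled the Wald p recomputed from fold change and SE (largest difference 4.11e-15), and adjusted p-values a Benjamini-Hochberg adjustment. The authors' deposited DESeq2 values were used as they stand, at a threshold of 0.05, over all genes. Neither table holds counts per library, so no count model was refitted.

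The difference between LPS states was tested by dividing the difference of both fold changes by its combined SE (root of the sum of both squares). The normal p was two-sided and Benjamini-Hochberg adjusted over genes with a mean of at least 10; errors were taken as uncorrelated, and the code was tested on simulated data. Python 3.11.15, scipy 1.17.1 and blastn 2.17.0 were used. Exon lengths, overlaps and coordinates are from GENCODE M21 on GRCm38, promoters from RefSeq on GRCm38.p6. Members, lists and alternatives were chosen with earlier results of these data known. Named are up to 10 called members per direction and state, up to 12 differences, the smallest p of each role group, the 3 highest levels and up to 3 genes per related list; some other members are given to account for all 51. Alternatives were centring, the genes adjusted over, a threshold of 0.01, a null of 0.25, a minimum of 1.5-fold and a minimum mean of 50. Some genes that this rule names in the related lists are not reported here.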

Additional observations from a re-analysis of the deposited data

Results flagged for a closer look

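The knockdown effect differed between LPS 3 h and unstimulated cells, by a test of the difference itself at an adjusted p under 0.05, in 26 of the 51 splicing factor genes. Values in brackets are log2 fold change with LPS minus log2 fold change without. The SR genes were Srsf7 (0.63), Srsf3 (0.58), Srsf10 (0.38), Srsf4 (0.36), Srsf6 (0.20) and Srsf5 (0.20). The hnRNP genes were Hnrnph3 (0.55), Hnrnpab (0.53), Hnrnph2 (0.50), Hnrnph1 (0.40), Hnrnpc (0.34), Hnrnpk (0.33), Hnrnpa3 (0.31), Hnrnpdl (0.31), Hnrnpr (0.30), Hnrnpf (0.27), Hnrnpd (0.23), Hnrnpa2b1 (0.23) and Hnrnpm (0.18). Among snRNP protein genes they were Snrpd1 (0.51), Snrpb2 (0.23) and Snrpb (0.20). The SF3 genes were Sf3b3 (0.27), Sf3a3 (0.24), Sf3b1 (0.17) and Sf3b5 (-0.31), the last being the sole negative difference. The same test called 18.2% of all genes more positive and 12.4% more negative.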

How the results depend on the processing

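No paired analysis was possible because the tables hold no values per library, and for the same reason no replicate could be left out. Subtracting the median of all genes (0.03 in each state) or adjusting over other sets of genes moved no count of splicing factors by over 1.5 times. With a null of a log2 change of at most 0.25, 2 genes rose and 1 fell in resting cells, 6 rose and 0 fell with LPS, and the difference was more positive in 5 and more negative in 0. With a minimum change of 1.5-fold, 0 rose and 1 fell in resting cells, 1 rose and 0 fell with LPS, and the difference counted 1 and 0. At a threshold of 0.01 no difference was more negative (0), against 21 more positive. Centred on genes of like mean count, 8 fell with LPS and 2 differences were more negative, against 18 more positive. Centring on all genes ended the LPS calls of Srsf1, Srsf11, Hnrnpul2 and Snrpc, and centring on genes of like mean count those of Srsf10 and Hnrnpm too. Calls were also gained. With LPS, Hnrnpa1 became lower on both centrings (adjusted p = 0.0343 and 0.00143). On genes of like mean count, Hnrnpl (-0.15, adjusted p = 6.71e-04) and Snrpa (-0.13, adjusted p = 0.0372) became lower with LPS. Hnrnph3 became lower in resting cells (adjusted p = 0.0493), and Snrpa gained a negative difference (-0.21, adjusted p = 0.0203). Hnrnpul2 with LPS turned from 0.07 to -0.02 under centring on genes of like mean count, and no other called gene changed sign under these centrings. SE ran from 0.03 to 0.15, with the highest in Snrpert, the gene of lowest mean normalized count.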

Other observations

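Among pseudogene rows that resemble a splicing factor, the most abundant was Gm7964, 99.2% identical over 1378 bases to Hnrnpk transcripts, with a mean normalized count of 511.5. It rose with knockdown by 0.27 (SE 0.08) unstimulated and 0.44 (SE 0.07) with LPS in the authors' deposited table, where Hnrnpk rose by 0.13 (SE 0.03) and 0.46 (SE 0.03). Gm12696, 97.9% identical to Hnrnpc, rose with LPS by 0.41 (SE 0.11), where Hnrnpc rose by 0.39 (SE 0.05). Gm8186, 100.0% identical over 231 bases to Snrpg, had 0.08 (SE 0.17) and -0.14 (SE 0.18), and Snrpg had no call either. Whether these rows hold reads of the parent genes was not tested.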
